A study of Arabidopsis thaliana with 18 samples.

Results

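The bdr1 mutant of Arabidopsis thaliana carries a T-DNA insertion (line SALK_142108C) in BDR1 (AT5G25520), and it was compared here with wild type (WT, the accession Col-0) across all genes of the count table. Members were taken by their sample labels: the 3 bdr1 libraries and the 3 WT libraries, 6 of 18 libraries in the series. Earlier results of these data were known when they were chosen. The other groups were the single mutants bdr2 and bdr3, the triple mutant bdrs, which carries all of these insertions, and fpa, a mutant of a regulator of RNA 3′ processing, with 3 libraries each. All plants were seedlings of 8 days, kept in the cold for 4 days and then grown on plates at 21 °C (16 h light, 8 h dark), and messenger RNA of whole seedlings was sequenced. Each mutant group rests on 1 insertion line, so other differences between that line and WT cannot be told apart from loss of the gene. In RNA from whole seedlings, fewer cells of a type and less RNA per cell cannot be told apart either.

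BDR proteins carry a SPOC domain and a part of TFIIS, its central domain. They are known for acting at the borders of genes, where RNA polymerase II pauses after the 3′ end. They are proposed to shield a gene close behind another on the same strand, by keeping polymerase of the upstream gene out of its promoter. Genes affected in this way are therefore expected to have a tandem neighbour just upstream. The seed maturation program, which recurs below, is the set of storage protein, oil body and late embryogenesis abundant (LEA) genes that abscisic acid and the regulators ABI3 and ABI5 drive in ripening seeds and that is shut off as a seedling establishes itself.

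Sequences of the genes on which the results turn came from the TAIR10.1 genome and RefSeq gene models, and are written 5′ to 3′ on the strand of the named gene. The first set shows the space between a tandem pair for 4 genes that were low in bdr1. Capitals mark the gap itself, and 10 bases of the upstream and of the downstream gene flank it in lower case. The gap of AT1G09910 spans 142 bp with 62.0% A and T, that of AAE18 88 bp with 52.3%, that of AT4G11410 62 bp with 77.4% and that of AT3G12940 23 bp with 87.0%.
AT1G09910, behind AT1G09920, chr1:3224532-3224693, minus strand: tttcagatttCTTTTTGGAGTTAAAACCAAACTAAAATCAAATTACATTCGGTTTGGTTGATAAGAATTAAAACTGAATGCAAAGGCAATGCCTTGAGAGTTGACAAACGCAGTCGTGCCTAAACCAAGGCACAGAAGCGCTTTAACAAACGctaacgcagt
AAE18, behind SCL33, chr1:20632998-20633105, plus strand: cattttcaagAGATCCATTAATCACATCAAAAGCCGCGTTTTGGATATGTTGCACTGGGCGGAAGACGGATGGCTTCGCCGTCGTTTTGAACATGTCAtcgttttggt
AT4G11410, behind EIF3A, chr4:6947404-6947485, minus strand: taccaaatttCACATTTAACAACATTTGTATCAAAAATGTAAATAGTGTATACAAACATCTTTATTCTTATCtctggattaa
AT3G12940, behind AT3G12950, chr3:4132458-4132500, minus strand: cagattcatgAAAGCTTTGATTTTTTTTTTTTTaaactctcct

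The second set shows the 250 bases upstream of the annotated start of 3 LEA genes that were low in bdr1 and of AT5G15360, the gene that rose. Capitals mark ACGTG, the core of the abscisic acid response element, on either strand. Its palindromic form counts once on each strand. AT4G36600 held 7 matches, AT2G42560 held 5, AT3G15670 held 3 and AT5G15360 held 1. The same window of MLS (malate synthase), also low in bdr1 but not printed, held 0.
AT4G36600, chr4:17263314-17263563, plus strand: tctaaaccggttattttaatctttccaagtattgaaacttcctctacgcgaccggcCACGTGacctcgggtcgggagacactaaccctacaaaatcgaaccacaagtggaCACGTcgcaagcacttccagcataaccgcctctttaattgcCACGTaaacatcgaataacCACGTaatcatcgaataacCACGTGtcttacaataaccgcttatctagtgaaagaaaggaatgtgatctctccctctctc
AT2G42560, chr2:17716913-17717162, minus strand: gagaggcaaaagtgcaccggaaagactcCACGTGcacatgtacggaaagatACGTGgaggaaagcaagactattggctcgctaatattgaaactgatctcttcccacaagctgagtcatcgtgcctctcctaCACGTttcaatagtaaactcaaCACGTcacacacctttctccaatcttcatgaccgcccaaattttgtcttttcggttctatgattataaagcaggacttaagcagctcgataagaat
AT3G15670, chr3:5310989-5311238, minus strand: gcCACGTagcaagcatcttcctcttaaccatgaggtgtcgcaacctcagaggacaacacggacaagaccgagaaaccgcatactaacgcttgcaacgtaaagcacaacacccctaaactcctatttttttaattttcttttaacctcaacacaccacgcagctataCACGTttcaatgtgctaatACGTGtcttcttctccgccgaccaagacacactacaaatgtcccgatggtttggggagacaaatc
AT5G15360, chr5:4989183-4989432, minus strand: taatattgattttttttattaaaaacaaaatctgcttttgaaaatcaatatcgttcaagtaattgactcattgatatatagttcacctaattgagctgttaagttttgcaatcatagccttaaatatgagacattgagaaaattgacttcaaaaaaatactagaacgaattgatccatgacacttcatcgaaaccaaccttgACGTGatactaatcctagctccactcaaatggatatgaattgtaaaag

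The libraries of bdr1 held 13209584 to 21084793 counts and those of WT held 17062008 to 17713047. The bdr1 libraries were less alike than those of WT. The chi-square per degree of freedom between library pairs was 63.95 and 65.9 for bdr1 1 against bdr1 2 and 3, 26.1 for bdr1 2 against 3, and 15.97 to 22.86 within WT. The library bdr1 3 also carried 1.01% of its counts on ribosomal RNA genes, against 0.0531% to 0.0842% in the other 5 libraries. Leaves and roots were both represented. The summed level of 27 light harvesting and photosystem genes was 101550, 170740 and 192860 CPM (counts scaled to a common library size, adjusted by TMM) in bdr1 against 125790, 125470 and 157290 CPM in WT, and that of 10 root meristem and cell division genes was 101.8 to 113.0 CPM in bdr1 against 101.8 to 119.1 CPM in WT.

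BDR1 transcripts were reduced but not absent in the mutant. BDR1 (TAIR10.1 chr5:8885088-8889904, plus strand, protein coding) was at 27.1, 34.3 and 26.4 CPM in WT and at 7.17, 6.85 and 7.81 CPM in bdr1. All bdr1 libraries lay below all WT libraries, and below every bdr2 and bdr3 library, where BDR1 ranged from 24.8 to 35.1 CPM. The log2 difference was -2.01 ± 0.17 (SE, n = 3 against 3; adjusted p = 3.07e-06, edgeR quasi-likelihood test with Benjamini-Hochberg adjustment over 20143 genes). In the triple mutant bdrs the level was 3.21, 4.01 and 3.17 CPM. Counts cover the whole gene, so they do not show where in BDR1 the remaining reads lie. The 3′ end of BDR1 overlaps AT5G25530 on the other strand, a gene with at most 0.058 CPM in any library.

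No called change was found in the relatives of BDR1. BDR2 was at 14.3, 15.8 and 16.3 CPM in WT and 17.6, 18.4 and 17.9 CPM in bdr1. All bdr1 libraries lay above all WT libraries, as they did for 718 of 20143 tested genes. The log2 difference of 0.22 (95% interval -0.07 to 0.50) did not pass the test (adjusted p = 0.78, edgeR). For BDR3 the log2 difference was -0.02 (-0.40 to 0.36), for TFIIS, the elongation factor that restarts stalled polymerase, it was -0.04 (-0.30 to 0.23), and for FPA -0.20 (-0.55 to 0.15). For these 4 genes the intervals leave out a change of 2-fold in either direction.

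**Figure D1:**
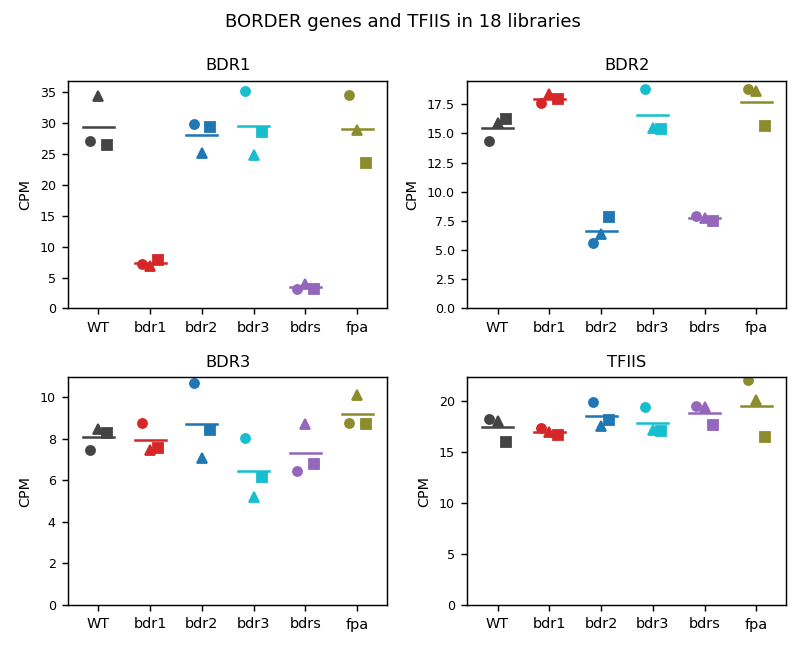
Level in CPM (y axis) of BDR1, BDR2, BDR3 and TFIIS in each of 18 libraries by group (x axis); circles, triangles and squares are replicates 1, 2 and 3 and bars are group means. BDR1 sits between 6.85 and 7.81 CPM in bdr1 and between 26.4 and 34.3 CPM in WT, while TFIIS stays between 16.0 and 22.1 CPM in all 18 libraries.

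Beyond BDR1, few genes differed between bdr1 and WT. At an adjusted p under 0.05, 1 gene was higher in bdr1 (0.00496% of 20143 tested) and 4 were lower (0.0199%), BDR1 included. As to what could have been seen, the 95% interval of the log2 difference lay within 1.5-fold either way for 9262 genes (46.0%) and within 2-fold for 16935 genes (84.1%), with a median log2 difference of 0.02 over all genes tested. At an unadjusted p under 0.05, 416 genes were higher (2.07%) and 748 were lower (3.71%). All bdr1 libraries lay below all WT libraries for 1056 of 20143 genes and above them for 718, so groups without overlap were common. DESeq2 called 1 higher gene (0.00391% of 25595) and 23 lower genes (0.0899%), so the size of the lower list depends on the tool.

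AT5G15360, an uncharacterized protein gene, was the gene that rose. It was at 1.79, 1.27 and 1.24 CPM in WT and 5.64, 8.76 and 7.04 CPM in bdr1, a log2 difference of 2.32 ± 0.30 (SE; adjusted p = 0.00129, edgeR). Its levels in bdr2 and bdr3 ranged from 0.871 to 1.69 CPM, and in bdrs, which carries the same bdr1 insertion, from 1.89 to 3.43 CPM. The bdr1 libraries thus lay above every other library of the series, the triple mutant included. Against the mean of bdr2 and bdr3, a comparison without any WT library, AT5G15360 was again higher in bdr1 (log2 difference 2.45, adjusted p = 2.56e-05, edgeR).

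A pair of the genes that fell were low in every mutant group, not in bdr1 alone. AT3G01345, another uncharacterized protein gene, was at 72.3, 83.5 and 95.3 CPM in WT and 0.478, 1.09 and 0.687 CPM in bdr1 (log2 difference -6.79 ± 0.24, SE; adjusted p = 9.62e-13, edgeR). In the 12 libraries of the other mutants AT3G01345 ranged from 0.588 to 2.72 CPM. MRD1 (AT1G53480) was at 46.5, 45.5 and 51.0 CPM in WT and 7.61, 11.8 and 10.2 CPM in bdr1 (log2 difference -2.27 ± 0.17; adjusted p = 4.22e-07, edgeR), and at 0.693 to 4.91 CPM in the other mutants. MRD1 was therefore higher in bdr1 than in bdr2 and bdr3 (log2 difference 1.97, adjusted p = 1.41e-06), while AT3G01345 did not pass that test (-1.02, adjusted p = 0.12). Both share the WT libraries with every other mutant comparison. MRD1 also overlaps HEI10, a gene of meiotic crossover on the other strand, and none of the sources used here says whether the counting used strand, so reads of these genes cannot be told apart. HEI10 was at 2.60, 2.81 and 2.92 CPM in WT and 1.10, 0.762 and 1.03 CPM in bdr1, and did not pass (log2 difference -1.52, adjusted p = 0.056). The pseudogene AT5G20750 showed the same layout at a low level, with 0.98, 1.21 and 0.956 CPM in WT and no count in any of the 15 mutant libraries. Its level in bdr1 was at least 18.5-fold lower when 3 counts over the bdr1 group are taken as the limit (adjusted p = 0.056, edgeR).

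The remaining called gene, AT4G36600, encodes an LEA protein, one of the hydrophilic proteins that accumulate in drying seeds. It was at 11.3, 11.9 and 10.9 CPM in WT and 6.07, 5.00 and 4.46 CPM in bdr1, with no overlap between the groups. The log2 difference was -1.12 ± 0.18 (SE; adjusted p = 0.0202, edgeR). This call was lost when any 1 of the 5 libraries other than bdr1 1 was left out, with adjusted p from 0.0752 to 0.253, though the log2 difference stayed between -1.15 and -1.03. Against the mean of bdr2 and bdr3 it fell by 1.42 on the log2 scale (adjusted p = 0.000153, edgeR), with 10.3 to 15.8 CPM in the 6 libraries of those mutants.

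**Figure D2:**
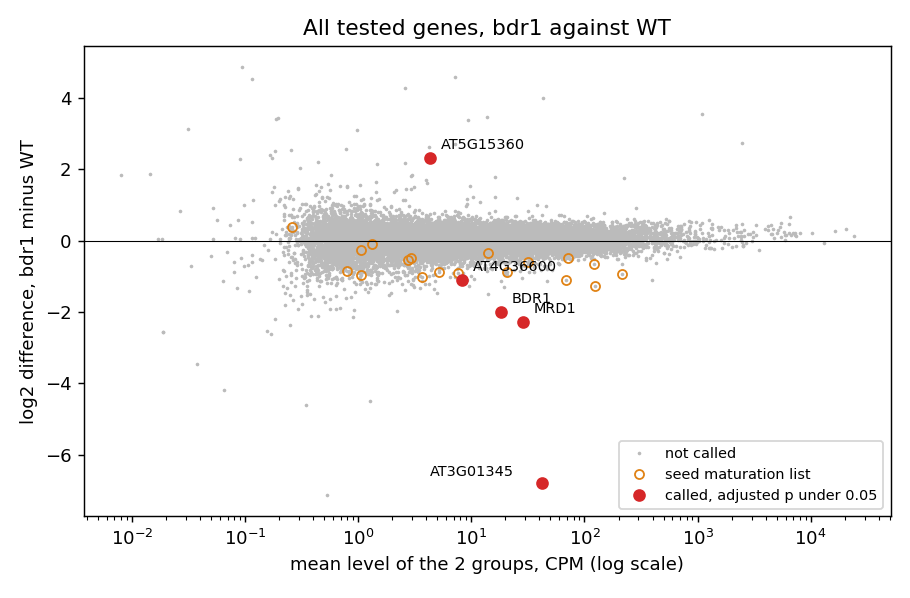
Log2 difference between bdr1 and WT (y axis) against the mean level of both groups in CPM (x axis, log scale) for 20143 tested genes; red points passed an adjusted p under 0.05 and open orange circles are the tested genes of the seed maturation list. The 5 red points are AT5G15360 above 0 and AT4G36600, BDR1, MRD1 and AT3G01345 below 0, and 17 of 18 orange circles lie below 0.

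Of the 10 genes next in line on the lower side, 3 were LEA genes like AT4G36600. By product name 43 of 20143 tested genes were LEA genes, a class chosen after its values were seen. The rest of the 10 were AT5G20750, HEI10, AT2G01422, malate synthase and the tandem genes AT1G09910, AT3G12940 and AT4G11410, of which the last 3 are described below. Malate synthase (MLS), which with isocitrate lyase (ICL) forms the glyoxylate cycle that turns stored oil into sugar, was at 52.1, 61.3 and 77.2 CPM in WT and 25.1, 29.4 and 33.0 CPM in bdr1 (log2 difference -1.13 ± 0.21, SE; adjusted p = 0.073, edgeR). The LEA gene AT1G72100 was at 10.5, 12.7 and 14.3 CPM in WT and 5.93, 5.77 and 5.84 CPM in bdr1 (-1.10, adjusted p = 0.11), and the LEA genes AT2G42560 (-1.09, adjusted p = 0.14) and AT3G15670 (-0.84, adjusted p = 0.15) lay close by. For MLS and these LEA genes the bdr1 libraries stayed below every WT library, as they did for 1056 of 20143 tested genes. Picking genes by smallest p favours such a separation. None of the 4 passed in edgeR, and DESeq2 called all of them (adjusted p = 0.00118, 0.00561, 0.00807 and 0.00561). On the higher side the 10 genes with the smallest p had log2 differences from 0.60 to 1.52 and adjusted p from 0.34 to 0.74. The first of them, AT2G41640, a glycosyltransferase gene, was at 24.2, 21.5 and 23.0 CPM in WT and 27.6, 53.5 and 40.0 CPM in bdr1.

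The seed maturation list, which was chosen with earlier results of these data known, stood lower in bdr1 as a whole. Of its 21 genes 18 were tested, 17 had a negative log2 difference and the median was -0.75, against 0.02 for all genes tested. None passed the adjusted threshold in edgeR or in DESeq2, and 10 were lower and none higher at an unadjusted p under 0.05, against 3.71% and 2.07% of all genes. The 12S storage protein gene CRC was at 114, 180 and 237 CPM in WT and 66.8, 71.1 and 80.6 CPM in bdr1 (log2 difference -1.28, adjusted p = 0.61), and EM1, an LEA gene of the embryo, at 8.25, 9.68 and 11.7 CPM in WT and 3.87, 5.98 and 6.09 CPM in bdr1 (-0.91, adjusted p = 0.48). The summed level of the 21 genes was 679, 868 and 1159 CPM in WT and 401, 523 and 553 CPM in bdr1, without overlap. It was lower still in bdrs (267 to 399 CPM, list median -1.32 against WT) and in fpa (127 to 166 CPM, list median -2.61). LEC1, a master regulator of embryo development, had no count in these 6 libraries, and FUS3 was at most 0.086 CPM. Leaving out 1 library at a time kept the median of the list between -0.92 and -0.45, nearest to 0 without WT 3.

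Product names gave a wider view of this class, chosen after its values were seen. Among 55 genes annotated as LEA proteins, dehydrins or embryonic cell proteins, 43 were tested, 32 had a negative log2 difference and the median was -0.42. Of all 20143 tested genes 9475 were negative. In edgeR 1 of the LEA genes was called lower, against 0.0199% of all genes, and in DESeq2 7 were, against 0.0899%. The 40 genes named LEA but of the hydroxyproline-rich glycoprotein family had a median of 0.13 over 30 tested, with none called by either tool and none at an unadjusted p under 0.05. Without bdr1 2 this median was -0.04. Of 13 oleosin genes, which coat oil bodies, 10 were tested with a median of -0.52, and 3 were lower at an unadjusted p under 0.05, against 3.71% of all genes. The oleosin median was -0.20 without bdr1 1, -0.34 without WT 3 and -0.80 without bdr1 2.

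The medians of the other lists lay nearer to that of all genes. Abscisic acid, drought and cold genes had a median of -0.18, with 17 of 18 tested genes negative, 5 lower at an unadjusted p under 0.05 (3.71% of all genes) and none called by either tool. Without WT 2, bdr1 1 or bdr1 3 this median was -0.30, -0.30 and -0.28. RD29B, a classical abscisic acid response gene, was at 55.4, 59.5 and 55.4 CPM in WT and 33.8, 36.5 and 33.0 CPM in bdr1 (log2 difference -0.72, adjusted p = 0.78). Light harvesting and photosystem genes had a median of 0.18 with 25 of 27 positive, which went to 0.01 without bdr1 3, to 0.27 without WT 3 and to 0.39 without bdr1 1. Root hair genes had a median of -0.20, with 2 of 8 lower at an unadjusted p under 0.05, and this went to -0.55 without bdr1 1 and to -0.04 without bdr1 3. Calvin cycle genes were at 0.09, salicylic acid defence at -0.03, jasmonate at 0.00, heat shock at 0.08, the circadian clock at -0.07, iron deficiency at -0.08, flavonoids and anthocyanin at 0.00, transcript elongation at 0.01, RNA cleavage and 3′ end formation at -0.15 and 10 reference genes at 0.01. These small medians turned on single libraries. Without 1 library at a time heat shock ran from -0.29 to 0.57, iron deficiency from -0.43 to 0.08, salicylic acid defence from -0.18 to 0.06, flavonoids from -0.17 to 0.13, the clock from -0.19 to 0.03 and 3′ end formation from -0.23 to 0.01. Outside the BORDER genes no member of any of the lists was called by edgeR or DESeq2 against WT.

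Flowering time genes had a median of -0.10 over 12 tested. FLC, the repressor of flowering that FPA is known to restrain, was at 6.69, 5.06 and 4.95 CPM in WT and 7.84, 10.6 and 9.27 CPM in bdr1. All bdr1 libraries lay above all WT libraries, as they did for 718 of 20143 tested genes. The log2 difference of 0.73 (95% interval 0.23 to 1.23) did not pass over all genes (adjusted p = 0.78, edgeR), nor did the difference from bdr2 and bdr3 (0.74, adjusted p = 0.18). FLC is overlapped by an annotated antisense gene, and reads of the pair cannot be told apart. FLD, a chromatin factor that acts on FLC, had a log2 difference of -0.36 (adjusted p = 0.78).

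**Figure D3:**
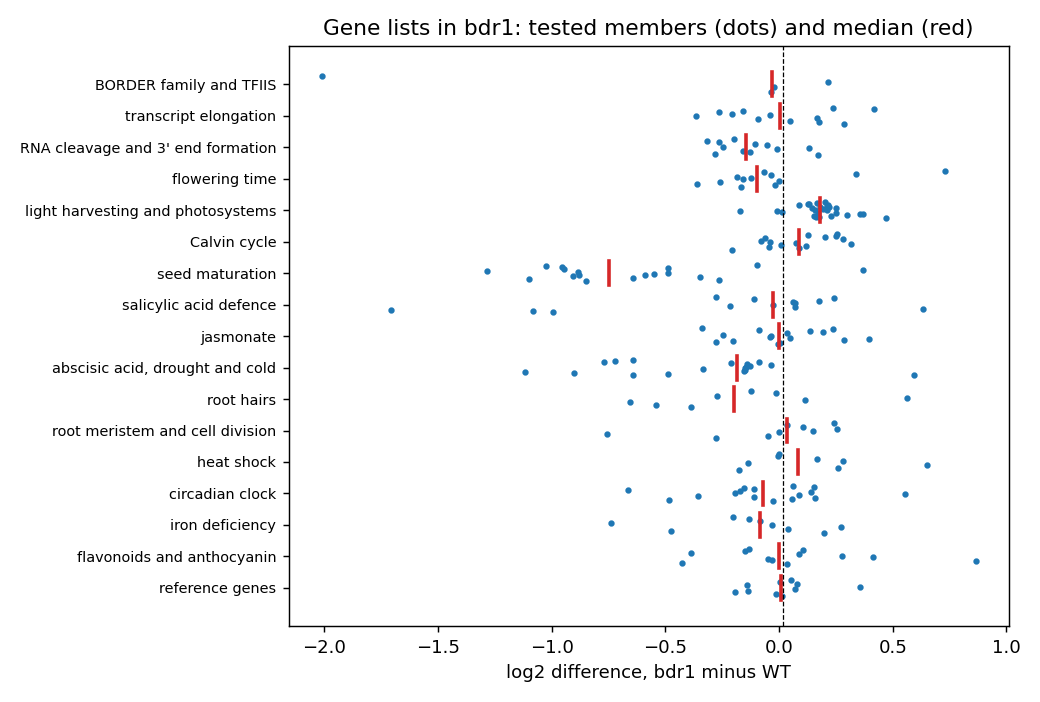
Log2 difference between bdr1 and WT (x axis) of the tested members (blue dots) of 17 gene lists (y axis), with the median of each list as a red bar and the median of all tested genes as a dashed line. The seed maturation median is -0.75, and the medians of the other lists lie between -0.20 and 0.18.

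Setting bdr1 against the mean of bdr2 and bdr3 asked whether these differences belonged to bdr1 among the single mutants, and no WT library entered it. In bdr1 4 genes were higher (0.0199% of 20143) and 50 were lower (0.248%), with a median log2 difference of 0.01 over all genes. Deviations of same-numbered libraries of these 3 mutants were positively correlated. Still, bdr1 3 was closer to bdr2 2 and bdr3 2 than to bdr2 3 and bdr3 3, so a pairing is uncertain. A fit with the replicate number as a block called 76 lower and 6 higher genes. The number of lower genes rested on single libraries. It was 181 without bdr1 1, 12 without bdr1 2, 13 without bdr1 3, 26 without bdr2 1, 31 without bdr2 3 and 27 without bdr3 2. The number of higher genes went to 288 without bdr1 1 and to 10 without bdr2 2. Of the 50 lower genes 11 passed in every one of 18 alternatives: BDR1, AT4G36600, AT2G18540, ECP63, AT3G53040, AT3G15670, AT2G42560, AT5G44310, MLS, LEA and EM1.

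The 4 higher genes were MRD1, AT5G15360, AT5G11330 and BDR2. BDR2 was low in bdr2, whose insertion it carries, at 5.61, 6.35 and 7.87 CPM, and was at 15.4 to 18.8 CPM in bdr3 and 17.6 to 18.4 CPM in bdr1. AT5G11330, an oxidoreductase family gene, was at 27.7, 27.1 and 28.3 CPM in bdr1 and 24.5, 31.6 and 24.7 CPM in WT, against 10.3 to 14.2 CPM in the 6 libraries of bdr2 and bdr3 and 10.5 to 12.6 CPM in bdrs.

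Seed and oil mobilization genes led the 50 lower genes. By product name 12 were LEA genes, among them AT4G36600, ECP63 (log2 difference -1.56, adjusted p = 0.000427, edgeR), AT3G53040 (-1.35, adjusted p = 0.000427) and AT5G44310 (-1.57, adjusted p = 0.00165). ECP63 was at 6.07, 6.53 and 4.81 CPM in bdr1, against 12.8 to 21.0 CPM in bdr2 and bdr3 and 9.39 to 12.6 CPM in WT. Seed storage was further represented by AT2G18540 and PAP85 of the cupin family and the oleosin gene AT3G01570. The calls of PAP85 and AT3G01570 were lost in 4 and 9 of 18 alternatives. EM1, an LEA gene of the embryo that its product name left out of the 12, fell as well. Both glyoxylate cycle enzymes fell, MLS by 1.25 and ICL by 1.46 on the log2 scale (adjusted p = 0.00425 and 0.0101). ICL was at 151, 316 and 281 CPM in bdr1, against 574 to 963 CPM in bdr2 and bdr3 and 417, 543 and 646 CPM in WT. The transcription factor genes ABI3 (-1.10, adjusted p = 0.047) and ABI5 (-1.12, adjusted p = 0.038) fell too, and RD29B (-1.09, adjusted p = 0.039), but these 3 calls were each lost in 7 or 8 of 18 alternatives. The summed level of the seed maturation list was 401 to 553 CPM in bdr1 and 627 to 1209 CPM in bdr2 and bdr3, and its median log2 difference in this comparison was -0.74, against 0.01 for all genes. Of its 18 tested genes 2 were called lower, as were 1 of 10 tested oleosin genes and 12 of 43 LEA genes (0.248% of all genes). Against WT the LEA median was 0.21 in bdr2, 0.21 in bdr3 and -0.42 in bdr1, so the groups bdr1 was compared with stood above WT.

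A second group among the 50 were cell wall genes. By product name 8 were extensins, the hydroxyproline-rich proteins that stiffen cell walls, out of 44 tested extensin genes (0.248% of all genes were lower), and the related genes PRP1, PRP3 and HRGP1 fell as well. Against WT the 44 extensin genes had a median of -0.28, with 28 negative and 15 lower at an unadjusted p under 0.05 (3.71% of all genes), but none was called by edgeR and 1 by DESeq2. LRX1, which shapes the wall of root hairs, was at 6.94, 5.22 and 3.18 CPM in bdr1, 7.86 to 16.9 CPM in bdr2 and bdr3 and 6.75, 6.82 and 11.1 CPM in WT. It fell by 1.27 on the log2 scale against bdr2 and bdr3 (adjusted p = 0.0155) but did not pass against WT (-0.66, adjusted p = 0.78). PRP3, a root hair wall protein, fell by 1.04 (adjusted p = 0.038). All 8 genes of the root hair list had a negative difference in this comparison, with a median of -0.45 and 2 called, and their summed level was 60.4, 50.4 and 32.5 CPM in bdr1, 68.5 to 109.5 CPM in bdr2 and bdr3 and 53.3 to 70.9 CPM in WT. Against WT the list median was 0.33 in bdr2, 0.58 in bdr3 and -0.20 in bdr1, so the groups bdr1 was compared with stood above WT. The lowest of these sums was in bdr1 3, which carried more ribosomal RNA than the other bdr1, bdr2, bdr3 and WT libraries. Without bdr1 3 the log2 differences of LRX1, HRGP1, PRP1 and PRP3 from bdr2 and bdr3 were -1.05, -0.97, -0.89 and -0.83, and none of these calls held (adjusted p = 0.142, 0.15, 0.208 and 0.264, edgeR). The calls of PRP1, PRP3 and HRGP1 were each lost in 4 to 7 of 18 alternatives. Those of the 8 extensin genes were each lost in 4 to 9, with LRX1 at 4 and AT4G08410, AT4G08400 and AT5G59170 at 9. Extensin genes have close copies, so that the counts of single members are uncertain.

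**Figure D4:**
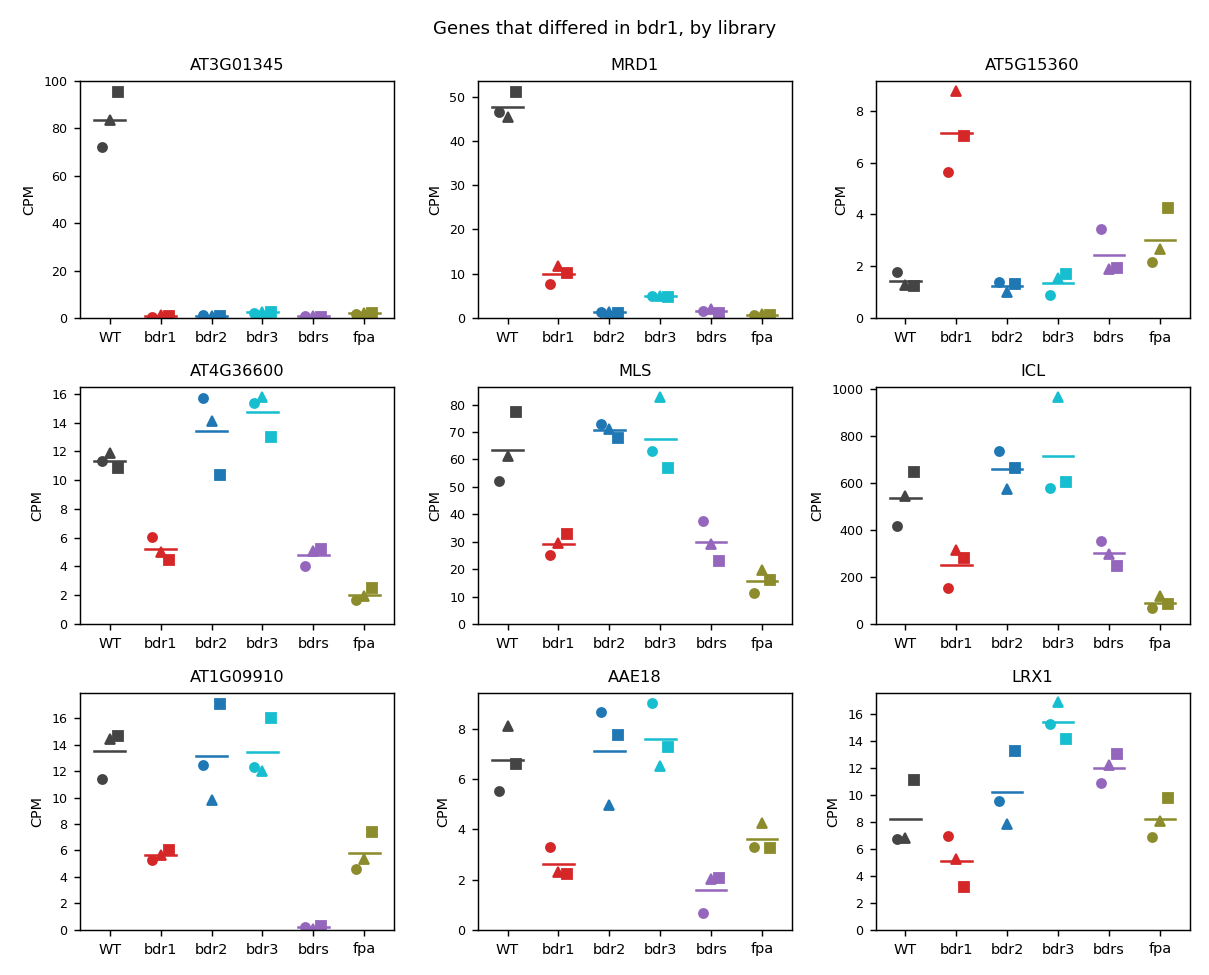
Level in CPM (y axis) of 9 genes that differed in bdr1, in each of 18 libraries by group (x axis); circles, triangles and squares are replicates 1, 2 and 3 and bars are group means. AT3G01345 and MRD1 are low in every mutant, AT5G15360 is highest in bdr1, and AT4G36600, MLS and ICL are lower in bdr1, bdrs and fpa than in bdr2 and bdr3.

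The upstream sequences of the 50 lower genes were described next. ACGTG, searched on both strands in the 250 bases before each annotated start, lay in 37 of 50 windows (74.0%), against 4846 of 20012 windows of tested genes (24.2%). It was in 12 of 12 LEA windows and 8 of 8 extensin windows, and in 17 of the 30 others. LEA and extensin genes that were not lower were not counted apart, so a trait of these families and one of the lower list cannot be told apart. The RY element CATGCA, which B3 factors such as ABI3 bind, lay in 13 of 50 windows (26.0%) against 7.81% of all. Of 18 windows of the seed maturation list, 11 (61.1%) held ACGTG and 10 (55.6%) held CATGCA. Of the 50, the windows of AT1G09910, AAE18, AT3G12940, MLS, ABI3, DAA1, AT1G33790, AT1G65090 and BGLU4 held neither motif.

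Genes of the lower list were also low in the triple mutant. The comparison of bdrs with WT uses none of the libraries of bdr1, bdr2 or bdr3. It called 559 genes lower (2.78% of 20143) and 381 higher (1.89%). Of the 50 genes lower in bdr1 than in bdr2 and bdr3, 30 were lower in bdrs than in WT, which is 60.0% of the first list and 5.37% of the second, and 2 were higher in bdrs. BDR1, mutated in both, is 1 of the 30. All 12 LEA genes were among the 30, and 1 of the 8 extensin genes. LEA genes were low in fpa too: the median of 43 tested genes against WT was -0.91 in bdrs and -1.22 in fpa. For 10 tested oleosin genes it was -1.68 and -1.36. Conversely, the 559 genes lower in bdrs had a median log2 difference of -0.16 between bdr1 and the mean of bdr2 and bdr3, with 65.8% of them negative, against 48.4% of all genes. Of these, 322 had a neighbour on the same strand 0 to 500 bp upstream, with a median of -0.11 and 9 called lower in bdr1. The other 237 had a median of -0.29 and 21 called lower, against 0.248% of all genes. The 381 genes higher in bdrs had a median of -0.04.

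**Figure D5:**
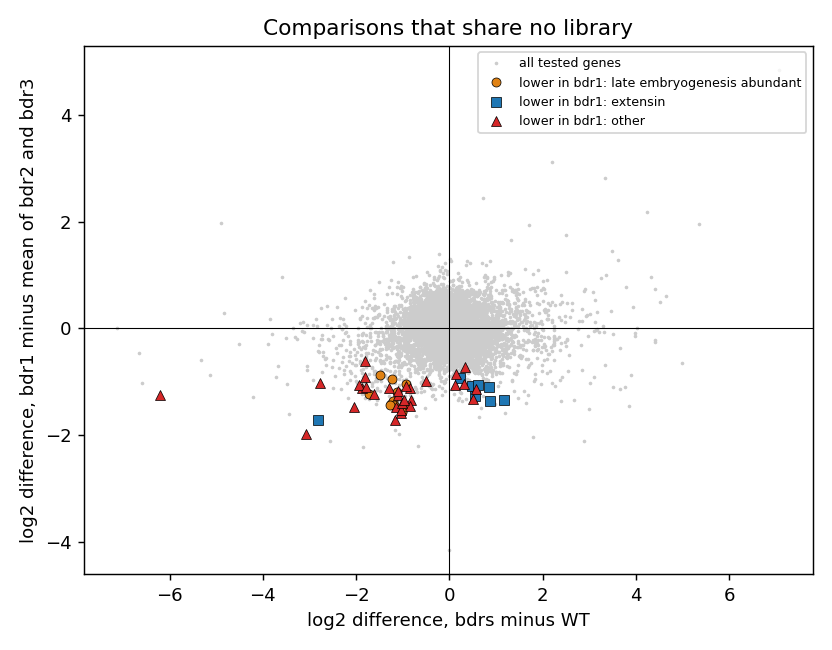
Log2 difference between bdr1 and the mean of bdr2 and bdr3 (y axis) against the log2 difference between bdrs and WT (x axis) for 20143 tested genes in grey, with the 50 genes called lower in bdr1 as orange circles (LEA), blue squares (extensin) and red triangles (other). The orange circles lie on the left, lower in bdrs, and 7 of the 8 blue squares lie right of 0.

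Close tandem genes, the class that BDR proteins are known to protect, had a median close to that of all genes in bdr1. The 4388 tested genes with a neighbour on the same strand 0 to 500 bp upstream had a median log2 difference of 0.01 between bdr1 and WT, against 0.04 for 2924 genes with a neighbour on the opposite strand at the same distance. None of the tandem genes was called by edgeR, 8 were called lower by DESeq2, and 195 (4.44%) were lower and 77 (1.75%) higher at an unadjusted p under 0.05, against 3.08% lower and 2.05% higher with an opposite neighbour and 3.71% lower and 2.07% higher over all genes. With an opposite neighbour 2 genes were called lower by edgeR and 3 by DESeq2, which called 0.0899% of all genes lower. In bdrs the medians were -0.06 and 0.01. The medians of the tandem class in single libraries, relative to the WT mean, were -0.024 to -0.017 in bdr1 and -0.012 to 0.010 in WT. These scores used a prior of 0.5 CPM and are not the fitted log2 differences, so signs can differ. With an opposite neighbour at the same distance they were -0.0053 to 0.0213 in bdr1 and -0.0276 to 0.0185 in WT. With a tandem neighbour beyond 1000 bp they were 0.0017, -0.0274 and -0.0309 in bdr1 1, 2 and 3. Low values in bdr1 2 and 3 were thus not particular to close tandem genes.

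Some single tandem genes were lower in bdr1. AT1G09910, a rhamnogalacturonate lyase family gene, was at 11.4, 14.4 and 14.7 CPM in WT and 5.26, 5.66 and 6.01 CPM in bdr1. The groups did not overlap, and the log2 difference of -1.26 (95% interval -1.74 to -0.79) just missed the threshold in edgeR (adjusted p = 0.056) and passed in DESeq2 (adjusted p = 0.000337). Against bdr2 and bdr3, where it was at 9.81 to 17.1 CPM, it was lower in bdr1 (-1.24, adjusted p = 0.00884, edgeR). In bdrs it was nearly silent, at 0.219, 0.0472 and 0.294 CPM. In fpa it was about as low as in bdr1, at 4.62, 5.36 and 7.43 CPM (log2 difference from WT -1.24, adjusted p = 0.00231, edgeR). Its upstream neighbour AT1G09920 overlapped between the groups, with 15.6, 10.8 and 11.4 CPM in WT and 13.7, 11.8 and 13.4 CPM in bdr1 (log2 difference 0.04).

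The other gaps printed above belong to genes picked for being low in bdr1 with a close tandem neighbour. Their shared layout is therefore not a result. Of 20143 tested genes, 4388 had such a neighbour at 0 to 500 bp. AAE18, an acyl-activating enzyme gene, was at 5.54, 8.09 and 6.58 CPM in WT and 3.30, 2.28 and 2.23 CPM in bdr1, with a log2 difference of -1.35 against WT (adjusted p = 0.15, edgeR; 0.00807, DESeq2) and -1.48 against bdr2 and bdr3 (adjusted p = 0.0133, edgeR). AT3G12940, an oxygenase family gene, was at 10.1, 9.41 and 10.1 CPM in WT and 6.79, 5.28 and 5.84 CPM in bdr1, and fell by 0.62 on the log2 scale against bdr2 and bdr3 (adjusted p = 0.041), a call lost in 9 of 18 alternatives. AT4G11410, an NAD(P)-binding family gene, was at 15.8, 14.0 and 13.4 CPM in WT and 10.2, 8.21 and 9.27 CPM in bdr1 (-0.64, adjusted p = 0.15, edgeR; 0.0246, DESeq2), and did not pass against bdr2 and bdr3 (-0.45, adjusted p = 0.15). The upstream partners SCL33, AT3G12950 and EIF3A had log2 differences of -0.05, -0.01 and -0.03 between bdr1 and WT.

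The genes that moved most in bdrs gave a scale for these values. AT4G11410, AT1G09910 and AT4G31310 fell by 6.66, 6.21 and 5.32 on the log2 scale in bdrs, while their log2 differences in bdr1 were -0.64, -1.26 and -0.55. AT4G31310, which starts 2 bp behind the proteasome gene PBA1, was at 17.3, 11.8 and 13.1 CPM in WT and 9.997, 9.52 and 9.27 CPM in bdr1 (adjusted p = 0.78, edgeR), against 0.219, 0.425 and 0.353 CPM in bdrs. The other genes in the 5 largest falls of bdrs were AT5G20750 and AT3G01345, described above. Of the 5 largest rises in bdrs, AT3G43680, AT5G38910, AT5G09570, AT4G14368 and NDB4, none was called in bdr1 (adjusted p of at least 0.76), and AT5G09570, at 3.96 to 4.82 CPM in bdrs, was at 0.0858 to 0.544 CPM in bdr1 and 0.11 to 0.281 CPM in WT. The comparisons of bdr1 and bdrs with WT share the WT libraries.

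No gene around the insertion site other than BDR1 itself was called. Of 15 tested genes within 50 kb none was called by edgeR or DESeq2, 1 had an unadjusted p under 0.05, and the log2 differences ran from -0.85 to 0.51 with a median of 0.07. AT5G25510, which starts 249 bp from BDR1 on the opposite strand, had a log2 difference of 0.02, and AT5G25490 and AT5G25500 had 0.30 and 0.07. On the other side CID6 had -0.19, AT5G25560 had -0.83 and AT5G25570 had -0.85. AT5G25560 was at 43.0, 85.3 and 71.2 CPM in WT and 51.9, 30.5 and 29.9 CPM in bdr1, so the groups overlapped (adjusted p = 0.65, edgeR).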

How the data were processed

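The authors sequenced strand-specific mRNA libraries, aligned reads with STAR 2.5.2b, kept unique alignments with SAMtools 1.3.1 and counted them per gene with featureCounts on TAIR10. The deposited table of raw counts (33602 genes) was tested here. The authors' second table, a normalized signal equal to the count over 1 size factor per library, defined only an alternative gene set. Every column belonged to 1 of 18 samples. Genes kept by filterByExpr (20143) were tested with edgeR 4.0.16 in R 4.3.3 (quasi-likelihood F test, TMM, 1 fit of 18 libraries, 12 residual degrees of freedom, common biological variation 17.3%), with Benjamini-Hochberg adjustment. DESeq2 1.42.0, other filters and libraries left out served as alternatives. The fit was tested on simulated data. Levels are CPM, and standard errors come from the fit. Deviations of same-numbered libraries of bdr1, bdr2 and bdr3 were positively correlated (0.11 to 0.82 over 13611 genes), so the block is given beside that comparison. Not every library was closest to its own number, and any pairing is read from the data alone. Positions are TAIR10.1 (RefSeq), matched for 32835 of 33323 nuclear genes, and differ from the older models that were counted. Members and gene lists were chosen with earlier results of these data known. Named genes were the BORDER genes, FPA and TFIIS, genes called in either comparison (up to 10 each way by smallest p against bdr2 and bdr3), the 10 smallest p each way at a mean of at least 1 CPM, the nearest 3 tested genes on each side of BDR1, 2 genes per list, and the 5 largest falls and rises in bdrs; ICL, AAE18, PAP85, ABI3, ABI5, AT3G01570, the root wall genes, LEC1, FUS3 and the product-name families were added after their values were seen.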

Additional observations from a re-analysis of the deposited data

Results flagged for a closer look

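In the test of bdr1 against the mean of bdr2 and bdr3 (edgeR, adjusted p under 0.05), the effect differed between the single mutants for 4 genes that were higher and 50 that were lower in bdr1. Among the genes called or nearest to a call against WT, the differences on the log2 scale were 1.97 for MRD1, -1.99 for BDR1, 2.45 for AT5G15360, -1.42 for AT4G36600, -1.24 for AT1G09910, -1.25 for MLS, -1.24 for AT1G72100, -0.62 for AT3G12940, -1.48 for AT2G42560 and -1.19 for AT3G15670. No formal test for a single outlying sample was applied within groups of 3 libraries.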

How the results depend on the processing

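BDR1, AT3G01345, MRD1 and AT5G15360 kept their call against WT in all 16 alternatives, and no named gene turned its direction. The 4 genes lower than in WT became 23 with DESeq2, 10 with no filter on low counts and 8 over the genes of the authors' normalized table. Leaving out 1 library gave 1 higher and 3 to 4 lower genes. Against bdr2 and bdr3, the 4 higher genes became 22 with DESeq2, and 3 to 288 without 1 library. The 50 lower genes became 122 with DESeq2, 33 with only the compared groups, 76 with the replicate block, 20 when the 3 libraries with the most ribosomal RNA were left out, and 12 to 181 without 1 library. All 50 were among the 122 and the 76, and 49 among the 181. The median of close tandem genes (0.011) was 0.0026 within 250 bp, 0.0102 within 1000 bp, 0.0085 with the block and -0.0361 to 0.0214 without 1 library. For bdr1 and WT the numbers do not pair the libraries (correlations 0.07, -0.33 and 0.55, and not every library was closest to its own number). There the replicate block gave 1 higher and 5 lower genes, and with only those groups, chosen after seeing the data, 1 and 3. The causes of these shifts were not tested. Depth and 3 libraries a group limit the rest: 84.1% of the 95% intervals against WT lie within 2-fold.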
